A study of Mus musculus with 8 samples.

Results

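The unfolded protein response is described here through 10 genes of its sensors, transcription factors, chaperones and degradation machinery in mouse pancreatic tumours: Ern1, Atf6, Xbp1, Atf4, Ddit3, Hspa5, Hsp90b1, Pdia4, Dnajb9 and Herpud1. The genes were chosen by symbol, and all 10 were found among the 19129 genes tested. The tumours were freshly isolated isografts from 8 mice, tumours grown from transplanted mouse material. Of these mice, 4 gave the libraries labelled control and 4 those labelled MEKi, for treatment over 7 days with trametinib, which blocks the MEK kinases upstream of ERK. The sources used here do not say what the control mice received, nor the tumour line, strain or age. Values are variance-stabilised and close to log2 for abundant genes. They are given as mean ± SD with n = 4 mice per label.

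The endoplasmic reticulum folds secreted and membrane proteins, and the unfolded protein response adjusts its capacity when unfolded proteins accumulate. The sensor kinase IRE1, encoded by Ern1, splices Xbp1 mRNA into the form that encodes an active transcription factor, the kinase PERK favours translation of Atf4, and ATF6 is cut in the Golgi to release a transcription factor. In the pancreas, acinar cells carry a large endoplasmic reticulum for digestive enzymes, and antibody-secreting plasma cells depend on XBP1. Splicing of Xbp1, translation of Atf4 and cleavage of ATF6 are not visible in gene-level RNA values.

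The libraries did not follow their labels in the ERK target gene Dusp6, a phosphatase gene that ERK activity switches on. Numbering libraries by label and replicate, control 1 to 4 had Dusp6 values of 12.19, 12.14, 9.31 and 9.24, and MEKi 1 to 4 had 8.88, 12.12, 12.20 and 11.01. Every comparison is therefore of library labels, and differences are the MEKi label minus the control label. Acinar and plasma cell content also varied. Cpb1, the acinar gene for carboxypeptidase B1, lay at 10.33, 17.22, 18.76 and 9.22 in control 1 to 4 and at 9.92, 9.26, 5.74 and 12.96 in MEKi 1 to 4, so that both libraries with very high values are labelled control. Jchain, the plasma cell gene for the joining chain of antibodies, lay at 7.51, 9.94, 9.22 and 8.67 in control 1 to 4 and at 9.93, 9.76, 11.15 and 6.73 in MEKi 1 to 4. In these whole tumours, fewer cells of a type and less RNA per cell cannot be told apart. The mean over 16 measured acinar genes ranged from 8.06 to 15.98 in the control libraries and from 5.86 to 10.74 in the MEKi libraries, and the mean over 11 plasma cell genes ranged from 8.00 to 9.06 and from 7.81 to 9.72. The plasma cell genes did not all vary alike: Sdc1, the most abundant, spanned 13.65 to 13.96, Ighm 9.35 to 12.26 and Igkc 7.56 to 12.66. All of these acinar and plasma cell genes had reads in at least 1 library, and the depth per library, as reads in tested genes, was 20090101 to 38569550.

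Promoter sequences of Hspa5 and Hsp90b1 hold the endoplasmic reticulum stress element, to which ATF6 binds together with the factor NF-Y, and that of Herpud1 holds a related element. These sequences are shown because their windows held a match to a motif searched, so they were chosen by the outcome of the search. Of the 9 genes with a window, 2 held the stress element and 1 the related one. RefSeq windows from 250 bases before to 50 bases after the gene start (build GRCm38.p6) were found for 9 of the genes. Atf6 had no window. Capitals mark the motif, and the other bases are in lower case, read 5′ to 3′ along the gene's strand.
Hspa5, chr2:34772020-34772049, plus strand: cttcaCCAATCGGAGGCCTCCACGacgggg
Hsp90b1, chr10:86705523-86705666, minus strand: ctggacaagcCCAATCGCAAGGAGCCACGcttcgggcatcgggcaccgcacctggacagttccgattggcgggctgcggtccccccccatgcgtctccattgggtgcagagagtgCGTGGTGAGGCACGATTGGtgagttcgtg
Herpud1, chr8:94386307-94386396, plus strand: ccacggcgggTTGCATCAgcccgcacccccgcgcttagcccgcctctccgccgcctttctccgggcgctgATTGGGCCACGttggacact

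The element, spelled CCAAT and CCACG with 9 bases of any kind between them and searched on both strands, occurred once in Hspa5, at -65 to -47 from the start, and in Hsp90b1 at -212 to -194 and, on the opposite strand, at -107 to -89. It was held by 39 of 32851 windows of this length, or 0.119%. Positions count from the RefSeq start. GENCODE places the start of Hspa5 earlier, at 34771970, so that by GENCODE the Hspa5 match lies inside the gene. The related element, ATTGG and CCACG with 1 base of any kind between them, shares the letters CCACG with the first and occurred in Herpud1 at -52 to -42 and in 12 of all windows, or 0.0365%. The first capitals in the Herpud1 sequence mark TGATGNAA, the core of the element bound by ATF4 with a C/EBP partner, on the opposite strand. It was held by 1304 windows, or 3.97%, and by none of the other 8 gene windows, Ddit3 and Atf4 included. The XBP1 and ATF6 site TGACGTGG, held by 222 windows (0.676%), was in none of the 9. Among 76 further unfolded protein response genes with a window, the first element was found in Calr, Canx, Creld2, Dnajc3, Pdia6 and Syvn1 and the related one in Dnajb11. Such matches are letters in a window and say nothing of binding.

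None of the 10 genes was called as different between the labels. Limma, the linear model fitted over all 19129 genes with Benjamini-Hochberg adjustment, called 0 of 10 at an adjusted p under 0.05, where 0.00523% of all genes were called. At an unadjusted p under 0.05, 0 of 10 were higher and 0 lower, where 0.465% and 1.3% of all genes were, 1.77% together. Limma voom on recovered reads also called 0, with 0 at an unadjusted p under 0.05. Values of the labels overlapped for all 10, where 0.565% of all genes had the MEKi libraries above and 0.701% below all control libraries, 1.27% together. Means under the MEKi label were higher in sign for 2 genes and lower for 8, where 51.6% of all genes were higher in sign, and the median difference was -0.07 against 0.01 over all genes. With the Cpb1 value as a covariate, 4 of 10 were lower in sign and the median difference was 0.05, and without control 2 and control 3 it was 0.04, also with 4 lower. Of the 95% intervals of the difference, the widest, for Ern1, ran from -0.57 to 0.37, and the narrowest, for Pdia4, from -0.14 to 0.22.

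**Figure D1:**
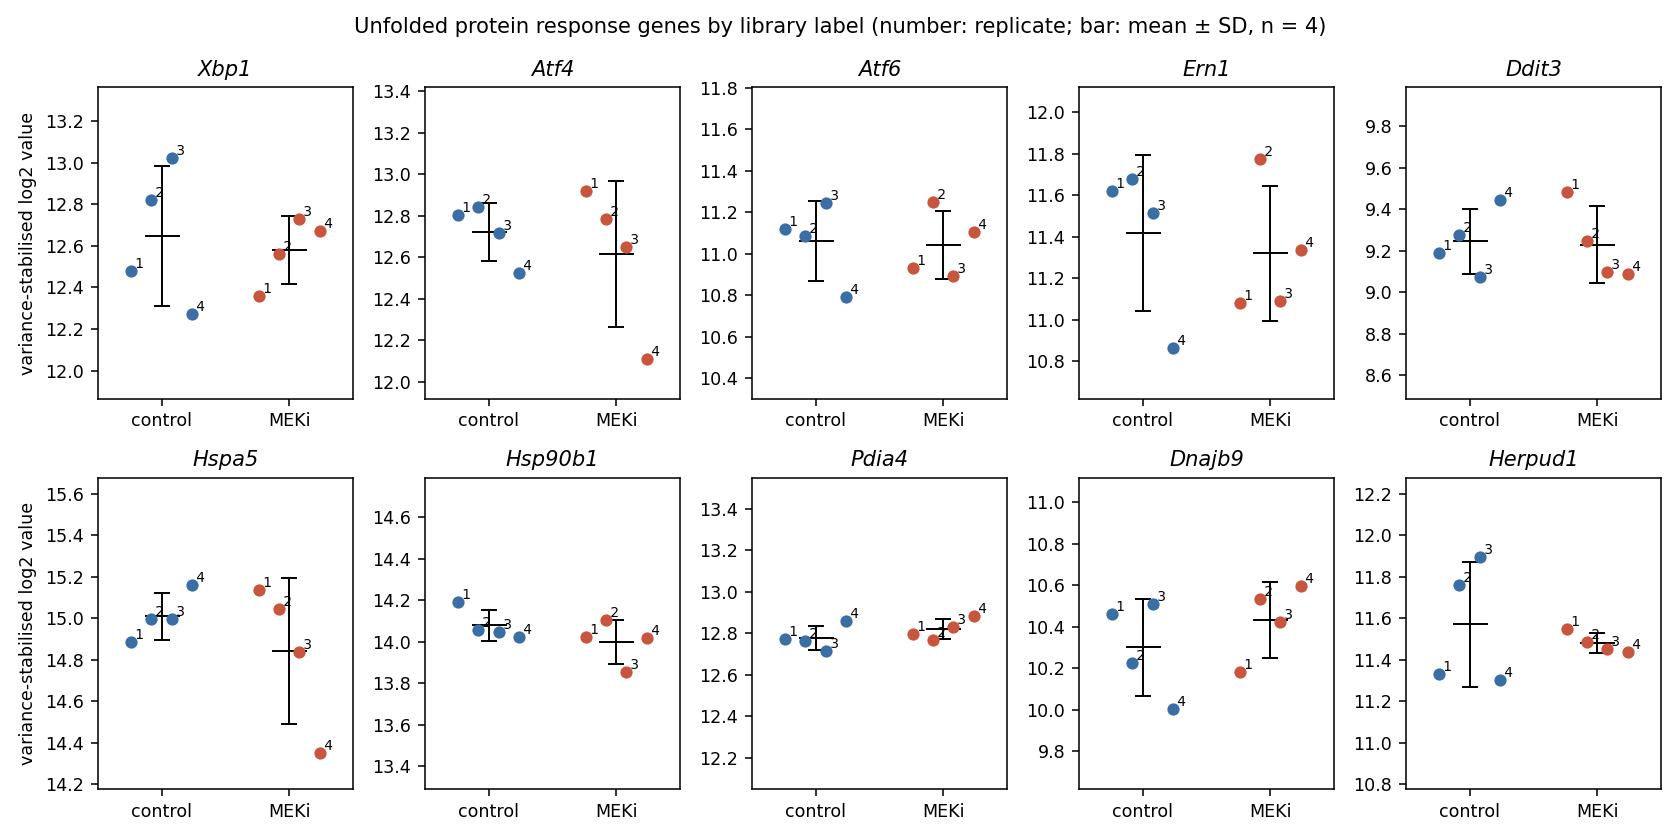
Variance-stabilised log2 value (vertical axis, the same span in each panel) of the 10 genes in the libraries labelled control (blue) and MEKi (red), with the replicate number beside each point and bars for mean ± SD (n = 4). The labels overlap in every panel, MEKi 4 is lowest for Hspa5 and Atf4, and Pdia4 spans only 0.17.

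Among the sensors, Ern1 (chromosome 11, 106394650 to 106487852, build GRCm38, as for the positions that follow) had values of 11.62, 11.68, 11.51 and 10.86 in control 1 to 4 and 11.08, 11.77, 11.09 and 11.33 in MEKi 1 to 4. Both the highest library, MEKi 2, and the lowest, control 4, stood apart from their own labels. The means were 11.42 ± 0.38 and 11.32 ± 0.32 (SD, n = 4), which differed by -0.10 in log2 (SE 0.21, limma adjusted p = 0.9996). Ern1 had the largest spread of the 10 genes, with a ratio of 1.91 between the highest and the lowest library in normalised reads, and an SD above that of 84.4% of the 9565 genes with a mean at or above the median gene. Atf6 (chromosome 1, 170704674 to 170867771) had values of 11.12, 11.08, 11.25 and 10.79 in control 1 to 4 and 10.93, 11.25, 10.89 and 11.10 in MEKi 1 to 4. Control 4 was again lowest, and MEKi 2 and control 3 were highest, and the means differed by -0.02 (interval -0.30 to 0.26).

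Per length of exon, the sensors were the least abundant of the genes that could be compared. Levels in normalised reads per kilobase of GENCODE exon averaged 224 for Atf6 (range over libraries 185 to 256) and 323 for Ern1 (220 to 420). These ranges overlapped. Mean levels were highest for the chaperone and isomerase genes, with 7438 for Hspa5, 4164 for Hsp90b1 and 2943 for Pdia4, although Pdia4 was below Atf4 in most libraries. Between these means and those of the sensors lay the means of Atf4 (2766, range 1847 to 3252), Xbp1 (1935, range 1501 to 2539), Herpud1 (1247, range 1052 to 1604) and Dnajb9 (496, range 377 to 580). The ranges of Pdia4 and Atf4 overlapped, as did those of Atf4 and Xbp1, of Xbp1 and Herpud1 and of Dnajb9 and Ern1, but within libraries the order changed for few of them: Pdia4 was above Atf4 in 3 of 8 libraries and Atf4 above Xbp1 in 7 of 8, while each other neighbour in the order was the higher in 8 of 8. Ddit3 has 2 overlapping gene models with 1 symbol in GENCODE M21 and was given no level per length.

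Of the transcription factor genes, Xbp1 and Atf4 had SDs over the 8 libraries of 0.25 and 0.26, and Ddit3 of 0.16. Xbp1 (chromosome 11, 5520659 to 5525893), whose spliced form drives genes of secretion and degradation, had values of 12.48, 12.82, 13.02 and 12.27 in control 1 to 4 and 12.36, 12.56, 12.73 and 12.67 in MEKi 1 to 4. The highest values were those of control 2 and control 3, which also had the highest Cpb1 values, and the lowest was that of control 4. The means were 12.65 ± 0.34 and 12.58 ± 0.16 (SD, n = 4), a difference of -0.07 (SE 0.17, interval -0.44 to 0.30) that turned to 0.14 with the Cpb1 covariate (interval -0.23 to 0.50) and to 0.20 without control 2 and control 3.

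Atf4 (chromosome 15, 80255184 to 80257541), the factor of the PERK branch that drives amino acid metabolism genes, had values of 12.80, 12.84, 12.72 and 12.53 in control 1 to 4 and 12.92, 12.78, 12.65 and 12.11 in MEKi 1 to 4. MEKi 4 was the library below the control range and MEKi 1 the one above it, and the difference of -0.11 (SE 0.17, interval -0.48 to 0.27) was 0.06 without MEKi 4. Ddit3 (chromosome 10, 127290774 to 127296288 for the longer model), which encodes the stress-induced factor CHOP, was the gene with the fewest reads, 344 to 747 per library. It had values of 9.19, 9.28, 9.07 and 9.44 in control 1 to 4 and 9.48, 9.25, 9.10 and 9.09 in MEKi 1 to 4, with control 4 and MEKi 1 highest. The means differed by -0.02 (interval -0.32 to 0.28). Since reads shared by the models may have been split or left out by the authors' counting, the level of Ddit3 is uncertain.

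The most abundant of the 10 genes, Hspa5 (chromosome 2, 34771970 to 34777547), encodes BiP, the chaperone that binds unfolded chains and holds the sensors inactive. Its values were 14.89, 15.00, 14.99 and 15.16 in control 1 to 4 and 15.14, 15.04, 14.84 and 14.35 in MEKi 1 to 4. MEKi 4 stood apart, and the other 7 libraries lay between 14.84 and 15.16. The difference of -0.17 (15.01 ± 0.11 against 14.84 ± 0.35, SE 0.18, limma adjusted p = 0.9996) shrank to -0.0035 without MEKi 4 and was 0.0466 after quantile normalization.

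The other abundant folding genes spanned less. Hsp90b1 (chromosome 10, 86690209 to 86705509), which encodes the chaperone GRP94, had values of 14.19, 14.06, 14.05 and 14.02 in control 1 to 4 and 14.02, 14.10, 13.85 and 14.02 in MEKi 1 to 4. Control 1 was highest and MEKi 3 lowest, with a difference between the labels of -0.08 (interval -0.30 to 0.14). Pdia4 (chromosome 6, 47796141 to 47813430), which encodes a disulfide isomerase, had values of 12.77, 12.76, 12.72 and 12.86 in control 1 to 4 and 12.80, 12.77, 12.83 and 12.88 in MEKi 1 to 4. This range of 0.17, a ratio of 1.12 in normalised reads, was the smallest of the 10, and only 0.502% of the 9565 genes with a mean at or above the median gene had a smaller SD. Hsp90b1 overlaps the annotated genes Gm15344 on its own strand and 1810014B01Rik on the other, and since the counting step is not described, reads shared with them are an uncertainty in its level.

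Dnajb9, a co-chaperone gene whose product ERdj4 works with BiP, and Herpud1, whose product helps assemble the degradation machinery in the membrane of the endoplasmic reticulum, complete the set. Dnajb9 (chromosome 12, 44205559 to 44210326) had values of 10.46, 10.23, 10.51 and 10.01 in control 1 to 4 and 10.18, 10.53, 10.42 and 10.60 in MEKi 1 to 4. The lowest were control 4 and MEKi 1 and the highest MEKi 4, and the difference of 0.13 (interval -0.18 to 0.45) was the largest of the positive ones. Herpud1 (chromosome 8, 94386438 to 94395377, overlapped by the antisense gene Gm15890, with the same uncertainty) had values of 11.33, 11.76, 11.90 and 11.30 in control 1 to 4 and 11.55, 11.49, 11.45 and 11.44 in MEKi 1 to 4. The MEKi libraries lay within 11.44 to 11.55, while the control libraries fell on either side of them, with means of 11.57 ± 0.30 and 11.48 ± 0.05 (SD, n = 4). The difference of -0.09 (SE 0.14, interval -0.41 to 0.22) turned to 0.11 with the Cpb1 covariate and 0.16 without control 2 and control 3.

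**Figure D2:**
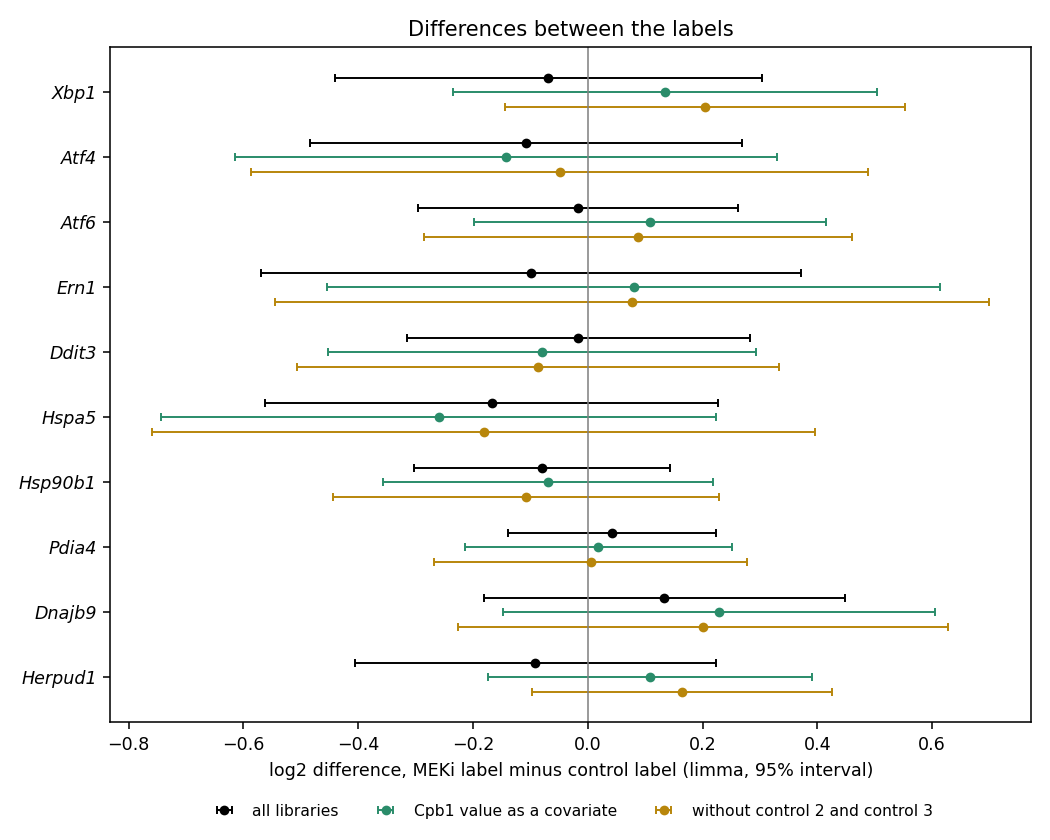
Log2 difference between the labels (horizontal axis, MEKi minus control) with 95% limma intervals for the 10 genes, from all libraries (black), with Cpb1 as a covariate (green) and without control 2 and control 3 (yellow). Every interval includes 0, and the values for Xbp1, Atf6, Ern1 and Herpud1 pass from below 0 to above it.

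Against acinar content, Herpud1 and Xbp1 had the highest r with Cpb1 of the 10 genes. For Herpud1, Pearson's r over the 8 libraries was 0.81 (exact permutation p = 0.0199, adjusted p = 0.398 over 20 relations) and Spearman's rho was 0.57 (exact permutation p = 0.151). The relation rested on control 2 and control 3: their Herpud1 values of 11.76 and 11.90 lay above the other 6 libraries, at most 11.55, and without them r was -0.05 (exact permutation p = 0.925). For Xbp1, r was 0.66 (exact permutation p = 0.0745, adjusted p = 0.704) and rho 0.57 (exact permutation p = 0.151), and r without control 2 and control 3 was -0.15 (exact permutation p = 0.836). The library that departed from this relation was MEKi 3, which had the lowest Cpb1 and the highest Jchain value, and an Xbp1 value of 12.73. With each library left out in turn, r for Xbp1 and Cpb1 was 0.93 without MEKi 3, a library singled out here after its values were seen, so the value is a description.

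At the unadjusted threshold, 1 of the 10 genes was positively and 0 negatively correlated with Cpb1, where 3.05% and 2.03% of all other genes were. None of the 20 relations passed the adjusted threshold. Both libraries with high Cpb1 lay above the other 6 libraries for 2 genes, Xbp1 and Herpud1, where this held for 3.83% of all genes, and below them for Pdia4 (2.33% of all genes). Pdia4 values there were 12.76 and 12.72, against 12.77 or more elsewhere. Both libraries are labelled control, and the part of acinar content in these values was not tested.

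Against plasma cell content, none of the 10 genes was correlated with Jchain at an unadjusted exact permutation p under 0.05, where 3.94% of all other genes were positively and 4.56% negatively correlated. The lowest Jchain value, 6.73, and the lowest Hspa5 and Atf4 values were all in MEKi 4. No correlation of Hspa5 and Atf4 with Jchain over all 8 libraries is given, since MEKi 4 stood apart in both. Its gap to the next library took 0.603 of the Hspa5 range and 0.514 of the Atf4 range. The limit was 0.5, which Atf4 passed only narrowly. Among the other 7, r with Jchain was -0.12 for Hspa5 (exact permutation p = 0.805, rho -0.21, exact permutation p = 0.662) and 0.05 for Atf4 (exact permutation p = 0.919, rho 0.18, exact permutation p = 0.713). Both values depended on which libraries entered. Without MEKi 3 as well, r over 6 libraries was 0.49 for Hspa5 and 0.38 for Atf4, and without control 1 too, over 5, it was -0.38 and 0.96. With MEKi 4 kept and only MEKi 3 left out, r was 0.80 for Hspa5 and 0.77 for Atf4 over 7 libraries (adjusted p = 0.169 and 0.176, exact permutation tests). MEKi 4 also had the lowest means of the ductal and tumour epithelium list (11.72, against 12.24 to 12.69) and of the neutrophil list (8.29, against 9.26 to 10.29). The part of these cell contents in the low Hspa5 and Atf4 values was not tested.

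**Figure D3:**
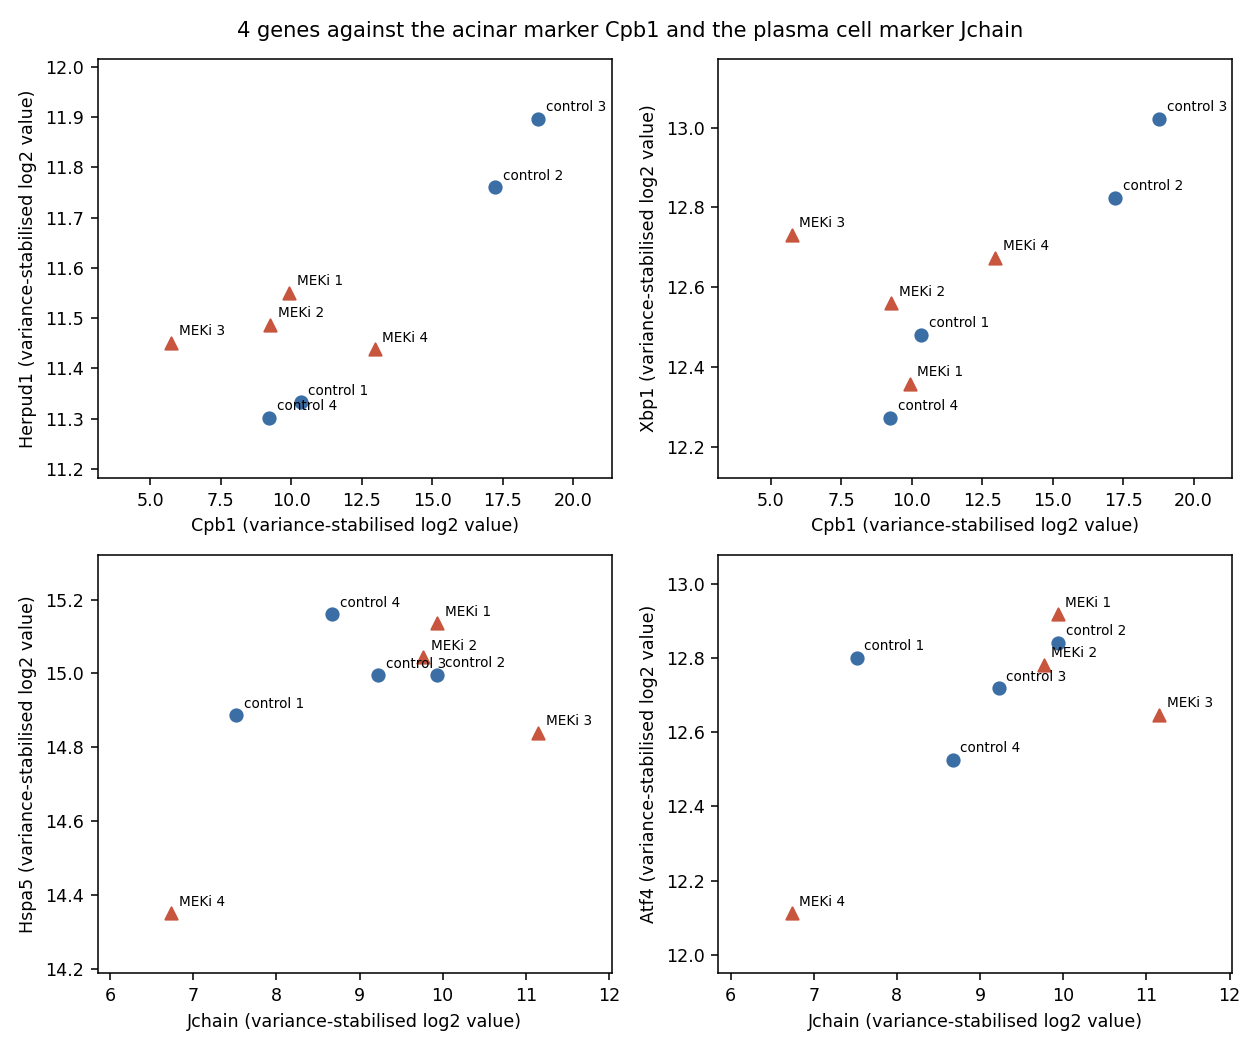
Herpud1 and Xbp1 against Cpb1 (upper panels) and Hspa5 and Atf4 against Jchain (lower panels), all as variance-stabilised log2 values, 1 point per library (blue circles control, red triangles MEKi). Control 2 and control 3 hold the upper right of both Cpb1 panels, and MEKi 4 the lower left of both Jchain panels.

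The signs of the relations among the 10 genes were mixed. Of their 45 pairs, 25 had a positive and 20 a negative Pearson's r, 17 of them over 7 libraries because MEKi 4 stood apart. No pair passed the adjusted threshold (lowest adjusted p = 0.155, exact permutation test), and 6 had an unadjusted p under 0.05. The share for pairs of other genes was not computed, so this count is a description. The sensors Atf6 and Ern1 were the most alike (r = 0.90, exact permutation p = 0.00345, rho = 0.81, exact permutation p = 0.0218), with r = 0.75 without control 4 and MEKi 3 (exact permutation p = 0.0847). Ddit3 and Hspa5 were positively related over 7 libraries (r = 0.84, exact permutation p = 0.0181, rho = 0.82, exact permutation p = 0.0341), and Ddit3 and Dnajb9 inversely over 8 (r = -0.85, exact permutation p = 0.00952, rho = -0.76, exact permutation p = 0.0368). Without control 4 and MEKi 1, the highest libraries for Ddit3, these were 0.48 over 5 and -0.59 over 6 libraries. The other pairs were Xbp1 with Herpud1 (r = 0.80, exact permutation p = 0.0166, rho = 0.69, 0.45 without control 3 and control 4), Xbp1 with Ddit3 (r = -0.77, exact permutation p = 0.0273, rho = -0.69, -0.60 without them) and Atf6 with Dnajb9 (r = 0.76, exact permutation p = 0.0312, rho = 0.79, 0.74 without control 4 and MEKi 3). The adjusted p was 0.203 or 0.234 for each pair after the first (exact permutation tests). None of the 6 had an unadjusted p under 0.05 once those 2 libraries were left out.

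Control 4 and MEKi 1, which carry different labels, held the 2 highest Ddit3 and Hspa5 values and the 2 lowest Xbp1, Ern1 and Dnajb9 values. Their Dusp6 values, 9.24 and 8.88, were also the 2 lowest, but control 3, at 9.31, was nearly as low and had the highest Xbp1 and the lowest Ddit3 value. In the other genes described, control 4 and MEKi 1 did not together hold the 2 highest or the 2 lowest values. These 2 libraries were picked after the values were seen, and the share over all genes was not computed. The arrangement overlaps with the correlations of Ddit3 given above and is a description. The part of ERK output in it was not tested.

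Some pairs joined by a known step of the pathway are given here, and the list is not complete. Other pairs of factor genes included Xbp1 with Herpud1 (r = 0.80, as above) and Xbp1 with Atf6 (r = 0.59, exact permutation p = 0.125). Xbp1 with Dnajb9 had r = 0.55 (exact permutation p = 0.157), and Atf6 with Hspa5 had r = -0.25 over 7 libraries (exact permutation p = 0.564). Ern1, whose product splices Xbp1 mRNA, and Xbp1 had r = 0.49 (exact permutation p = 0.217, rho = 0.48, exact permutation p = 0.243). Atf4 and Ddit3, a target of ATF4, had r = 0.13 over 7 libraries (exact permutation p = 0.781, rho = 0.39, exact permutation p = 0.396). Among the 3 genes with a stress element or the related element in the sequences above, r was 0.15 for Hspa5 and Hsp90b1 (exact permutation p = 0.784, rho -0.07, exact permutation p = 0.906), -0.02 for Hspa5 and Herpud1 (p = 0.952, rho -0.11, p = 0.84, exact permutation tests) and -0.04 for Hsp90b1 and Herpud1 (p = 0.911, rho 0.07, p = 0.882, exact permutation tests).

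**Figure D4:**
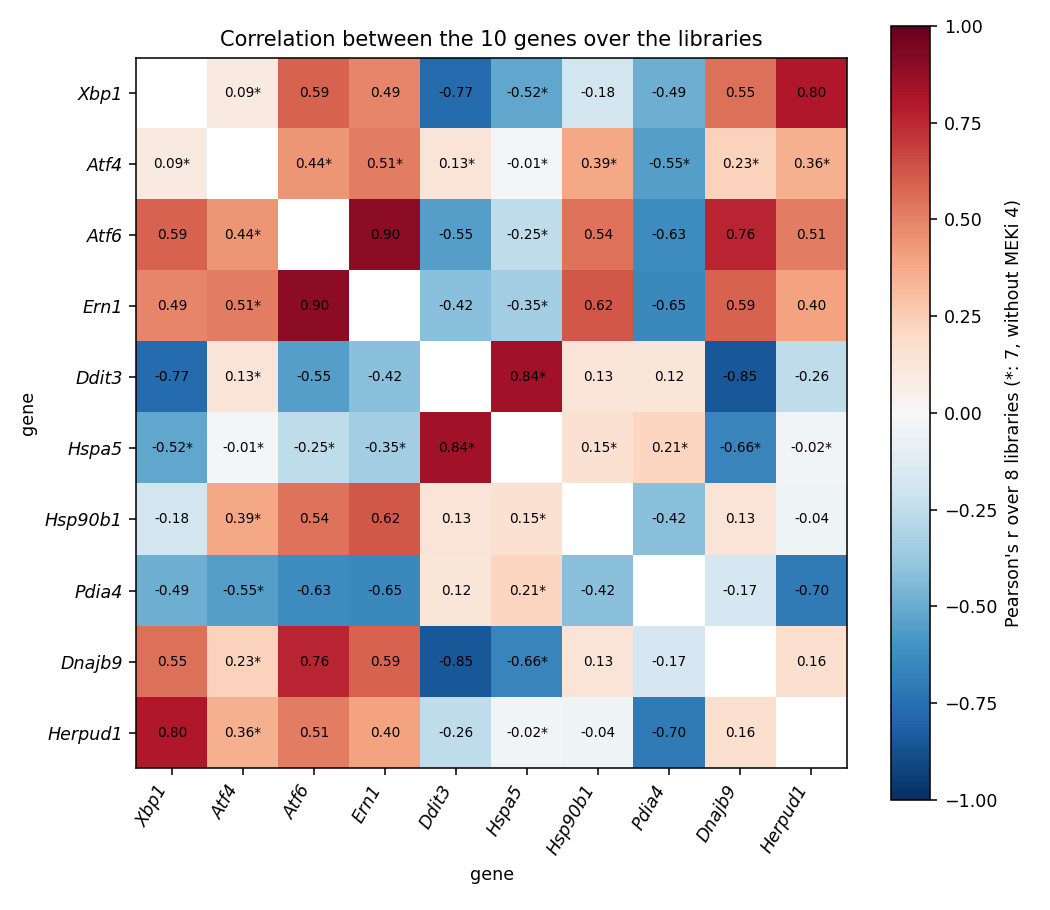
Pearson's r between the 10 genes over the libraries (colour scale from -1, blue, to 1, red), with an asterisk where MEKi 4 was left out. Values of r are positive among Atf6, Ern1 and Dnajb9. For Ddit3, r is negative with Xbp1 (-0.77) and Dnajb9 (-0.85) and positive with Hspa5 (0.84). No pair passed the adjusted threshold.

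Over the 8 libraries and 9565 genes searched, the closest patterns were those of Itprid2 (r = 0.98), Dagla (0.96) and Edem1 (0.92) for Xbp1. Edem1 encodes a lectin-like degradation factor of the endoplasmic reticulum. The closest to Herpud1 were Trabd (r = 0.97), Slc6a9 (0.96) and Sec24d (0.95), the last a coat protein gene of vesicles leaving the endoplasmic reticulum. Hspa5 was closest to Slc35a4 (r = 0.997), D8Ertd738e (0.995) and Adamtsl4 (0.988), values that include the MEKi 4 library that stands apart and were 0.986, 0.972 and 0.976 over the other 7, and Pdia4 to Parp9 (0.99), Tgtp2 (0.99) and Parp14 (0.99). The first genes for the others were AI506816 for Atf4 (r = 0.98, or 0.905 without MEKi 4), Atg13 for Atf6 (0.98), Tmem131 for Ern1 (0.97), Actl6a for Ddit3 (0.98), Atp6v1c1 for Hsp90b1 (0.97) and Galnt7 for Dnajb9 (0.99). Such values are the highest of many with few libraries, which also share depth and cell content, and are given as a description.

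The wider pathway was measured through 96 further genes in 5 lists, of which limma called 0 (0 by voom), where 0.00523% of all genes were called, and gave 1 an unadjusted p under 0.05, where 1.77% of all genes had one. That count was 9 with the Jchain value as a covariate, where 804 of all 19128 genes had such a p. It was 4 without MEKi 1, where 676 of all 19129 genes had one. It was 3 without control 4 or MEKi 2 (625 and 487 of all genes). It was 0 without control 2, MEKi 3 or MEKi 4 (266, 326 and 317 of all genes). With all libraries and no covariate, 338 of all genes had one. Of 24 chaperone and folding enzyme genes, 18 were lower in sign with a median difference of -0.07. Ppib, a prolyl isomerase gene, had the smallest p (11.34 ± 0.07 against 11.15 ± 0.14, difference -0.20, SE 0.09), and P4hb, the most abundant, lay at 15.16 ± 0.14 against 15.12 ± 0.13. Of 16 degradation genes, 8 were lower in sign (median 0.01). For Derl2, a gene of the retrotranslocation channel, every MEKi value exceeded every control value (10.51 to 10.61 against 10.36 to 10.50, difference 0.13, limma adjusted p = 0.9996), as for no other of the 96 genes, where 0.565% of all genes were so placed and 0.701% the other way. Vcp, which encodes the ATPase that pulls proteins out of the membrane, had 12.49 ± 0.09 and 12.60 ± 0.15.

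The PERK and ATF4 list had the lowest median of the 5, -0.13, with 23 of 25 genes lower in sign and 0 called. Without MEKi 4 the median was -0.02 with 14 of 25 lower, and without control 2 and control 3 it was 0.01 with 12 of 25 lower. In every other alternative, 20 to 25 of the 25 were lower, with medians of -0.23 to -0.08. Nupr1, a stress factor gene and the gene with an unadjusted p under 0.05 (limma adjusted p = 0.9996), had values of 12.42, 13.59, 14.51 and 12.46 in control 1 to 4 and 12.56, 12.28, 11.77 and 11.87 in MEKi 1 to 4. The difference was -1.12 (SE 0.43). Its highest values were in control 2 and control 3, as for Cpb1. Nars, the asparaginyl-tRNA synthetase gene and the most abundant of the list, had 13.30 ± 0.04 against 13.11 ± 0.45, with MEKi 4 lowest at 12.47.

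Among the genes of ATF6-like factors and their proteases, 6 of 8 were higher in sign (median 0.04), with Atf6b at 10.57 ± 0.11 against 10.44 ± 0.11 and the protease gene Mbtps1 at 12.28 ± 0.03 against 12.26 ± 0.13. Of 23 translocon and early secretory genes, 18 were lower in sign (median -0.08). The translocon-associated genes Ssr4 and Ssr3 had 11.26 ± 0.22 against 11.02 ± 0.12 and 13.48 ± 0.12 against 13.57 ± 0.07. In all 5 lists no gene rose or fell past the adjusted threshold.

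**Figure D5:**
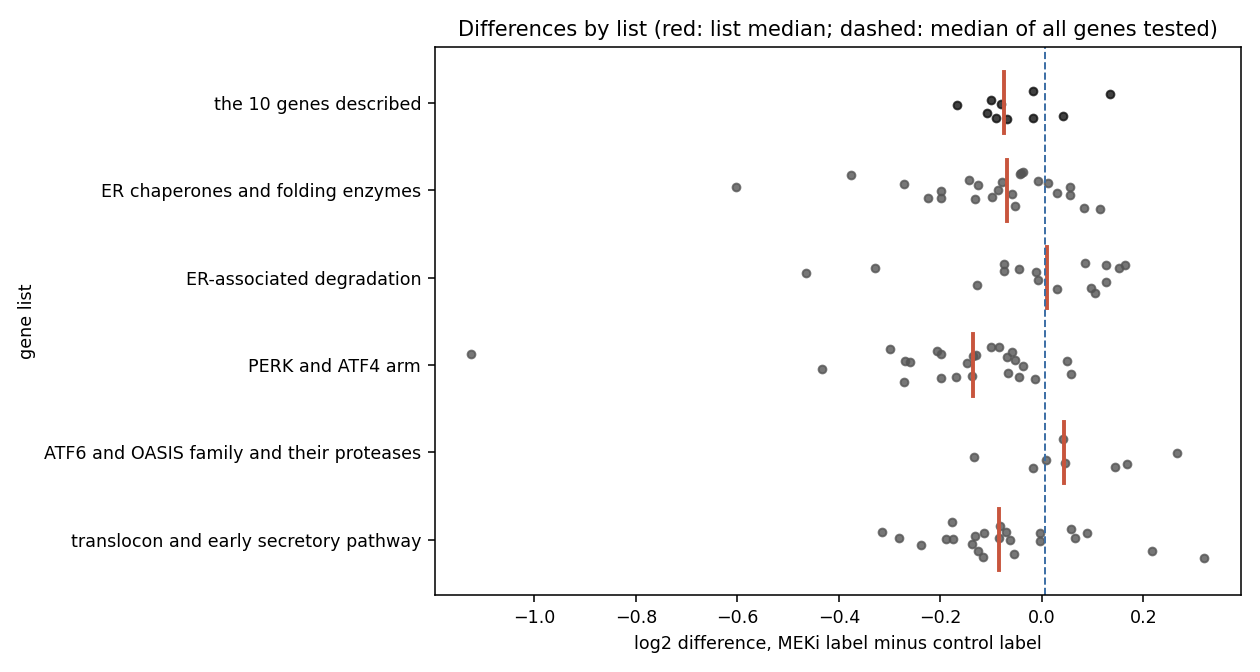
Log2 difference between the labels (horizontal axis, MEKi minus control) of each gene, by list, with the list median in red and the median of all 19129 genes, 0.01, as a dashed line. List medians lie between -0.13 and 0.04, and the point at -1.12 is Nupr1.

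Of these 96 genes, 9 were positively and 2 negatively correlated with Cpb1 at an unadjusted exact permutation p under 0.05, against 3.05% and 2.03% of all other genes. The 9 were Ero1lb, Sel1l, Edem2, Os9, Nupr1, Atf6b, Sec61a1, Sec24d and Sec31a, named after their values were seen, and the negative ones were Pdia3 and Derl2. None of the 9 was positively correlated at that threshold without control 2 and control 3. Of the 584 of all other genes positively correlated with Cpb1, 125 also were without these libraries. With Jchain, 8 were positively and 2 negatively correlated, against 3.94% and 4.56%. The 8 were Pdia5, Hyou1, Creld2, Manf, Fkbp2, Ppp1r15a, Mthfd2 and Wars, of which 1 passed without control 1 and MEKi 4. Of the 753 of all other genes positively correlated with Jchain, 163 also passed without them.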

How the data were processed

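RNA from 8 isografts was measured as strand-specific total RNA libraries, per the labels' protocols. The authors deposited variance-stabilised values, close to log2, and filtered genes, as the table's name records. STAR 2.5.3a, DESeq2 1.18.1 and GRCm38 are named in the submitters' processing notes. The sources used here name neither annotation nor counter.

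Inverting the transformation from its floor of 5.12 gave whole reads for 100% of values (within 0.01). Of 19431 rows, 32 naming no gene, with 0.101% to 0.167% of reads, were left out, and for 86 symbols with several rows the one with the highest mean was kept. Normalised reads are reads divided by the authors' size factor recovered from the values. The test was limma 3.58.1 under R 4.3.3 (trend, no covariate, two-sided). Correlations used exact permutation over all pairings, within the larger cluster where the largest gap passed 0.5 of a gene's range. Both procedures were tested on simulated data. Alternatives were no trend, quantile normalization, the 75% of genes with the highest mean, voom on recovered reads, Cpb1 or Jchain as covariate, the replicate number as a block, list means in place of Cpb1 and Jchain, Spearman's rho, and each library left out. Leaving out control 2 and control 3 was chosen after seeing the data. Named genes are the 10, their closest patterns, and per list the gene with the smallest p and the most abundant one. Members and lists were chosen with earlier results of these data known. Gene coordinates are from GENCODE M21 (GRCm38) and those of the promoter sequences from the RefSeq windows, counted from 1. The protein features planned were not run, since no protein table was used here.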

Additional observations from a re-analysis of the deposited data

Results flagged for a closer look

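The translocon-associated gene Ssr3 had a value of 13.67 in control 1, while the other control libraries lay between 13.40 and 13.44. The gap took 0.847 of the range of the 4 libraries, above Dixon's 95% critical value. It was 1 of 58 groups of 4 examined, and chance gives about 1 group in 20. None of the 20 groups of the 10 genes described had such a library.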

How the results depend on the processing

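No alternative called any of the 10 genes or the 96 further ones. Directions changed for Xbp1 (0.14 with the Cpb1 covariate, 0.20 without control 2 and control 3, and -0.19 to 0.0551 with 1 library left out), Atf6 (0.11, 0.0874, and -0.11 to 0.0446), Ern1 (0.0800, 0.0769, and -0.28 to -0.01) and Herpud1 (0.11, 0.16, and -0.18 to 0.0168), in the same order. Quantile normalization turned Hspa5 to 0.0466 and Hsp90b1 to 0.0278. With 1 library left out, Atf4 ranged from -0.21 to 0.0604 and Ddit3 from -0.10 to 0.0495. Pdia4 and Dnajb9 kept their sign. The single gene called of 19129 became 0 with the 75% of genes with the highest mean, with either covariate and with the replicate block, 4 without control 2 and control 3, and 0 to 2 with 1 library left out. For relations with Cpb1 and Jchain, 0 to 1 passed with 1 library left out, the 1 being Xbp1 with Cpb1 without MEKi 3. For pairs, 1 passed after quantile normalization, Ern1 and Pdia4 (r = -0.97, exact permutation adjusted p = 0.0357). The causes were not tested. The same-numbered libraries did not deviate together (r from -0.46 to 0.20), and the replicate block left 0 of the 10 genes called. With 4 mice per label, differences within the 95% intervals given could not be told from 0.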
